A study of Mus musculus with 6 samples.

Results

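Neurons that carried a count of Rprm and no count of Tac1 made up 107 of the 530 cells kept from 6 mice, or 20.2%. A well of the sort plate holds a single cell, and wells passed with 500 or more genes seen and less than 25% mitochondrial counts. The 107 wells, called members here, were chosen by their measured counts of Rprm (1 or more) and Tac1 (0). They were 55.2% of the 194 kept wells with Rprm. They were set against the 336 kept wells without Rprm, against the 230 of these that also lacked Tac1, and against the 87 wells that held both genes, always within the same plate.

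The cells came from the ventromedial hypothalamus (VMH) of 3 female and 3 male mice at postnatal day 10, and each mouse filled a plate of 96 wells. The genotype of every mouse was Ai14f/+;Sf1-Cre, a fluorescent reporter under a Cre driver of the Nr5a1 (SF-1) lineage, so no group lacks the driver or the reporter, and a lineage sort also takes cells that no longer express Nr5a1. Dissociated cells were purified by fluorescence-activated sorting, and BD Precise whole-transcriptome libraries were prepared from them. The series title concerns estrogen receptor alpha and a sex-dependent control of energy expenditure, and sex is the one difference between mice that the labels give.

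Rprm codes for Reprimo, a small glycoprotein known as a target of the tumour suppressor p53 that can halt the cell cycle. Tac1 codes for the precursor of substance P and neurokinin A, the tachykinin peptides. Both are expressed by neurons of the VMH, a nucleus of mostly glutamatergic cells that takes part in the control of energy use, glucose and social behaviour. Rprm lies at chr2:54084093-54085552 on the minus strand as a gene of 1 exon, and Tac1 at chr6:7554879-7565834 on the plus strand (GRCm38/mm10, GENCODE vM21).

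Of 576 wells, 46 had too few genes and were not used, and none of these held Rprm. Kept wells had median counts of 2097 in female 2 and 5170 to 7979.5 in the other mice. The names of the 96 wells are plate positions that recur in all 6 plates and do not mark shared cells. Of the kept wells, 12 had more markers of a non-neuronal cell type than of neurons, 10 of them in female 1. None of the 12 held Rprm or Tac1, which allows a share of up to 25%, at a median of 938.5 counts. Each plate is 1 mouse, so plate and mouse cannot be told apart, and a sex difference is also a difference between plates. Intervals and limits given here cover counting error only.

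Members were found in every mouse. Females 1, 2 and 3 held 13, 21 and 12 of them, and males 1, 2 and 3 held 21, 16 and 24. Their summed counts were 71196, 48687 and 77999 for females 1, 2 and 3 and 164750, 120207 and 211844 for the corresponding males. The sums of the males were therefore deeper than any of the females. The median member had 5840 counts and 2510 detected genes, against 5344 counts in wells without Rprm, 4967.5 in wells with neither gene and 7320 in wells with both. In 5 of 6 mice, male 1 being the exception, members were deeper at the median than wells with neither gene. The part of depth in who counts as a member was not tested beyond the thinning given with the sex comparison.

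**Figure D1:**
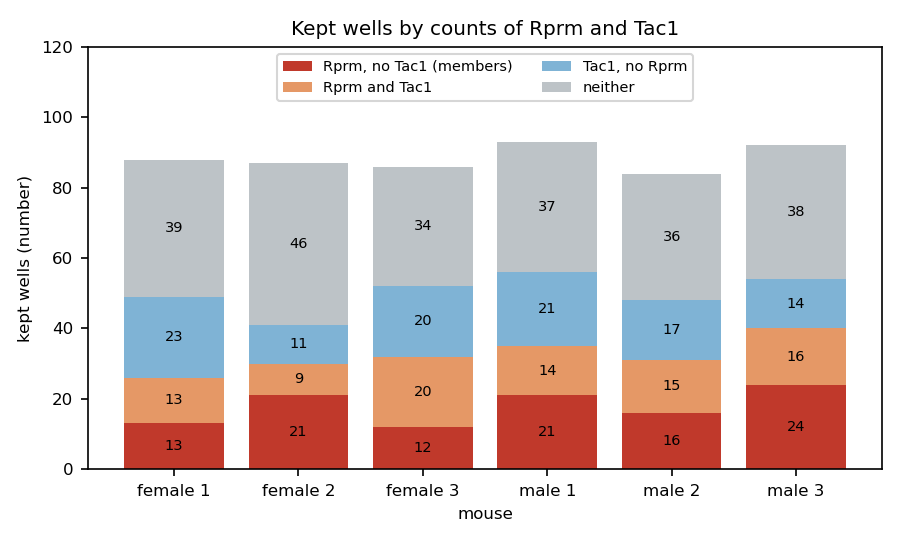
Number of kept wells per mouse (vertical axis) for 3 female and 3 male mice, split by whether a well held Rprm, Tac1, both or neither. Members number between 12 and 24 per mouse, and wells with neither gene are the largest class in each mouse.

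Rprm chose these wells, so its level is given as a description. A single count made 45 of the 107 wells members, 32 wells had 2 counts, 13 had 3 and 17 had 4 or more. The median was 2 counts and the highest 34, in a well of male 3. Summed over the members of a mouse, Rprm was at 267, 1089 and 577 counts-per-million (CPM) in females 1, 2 and 3 and at 285, 241 and 463 CPM in males 1, 2 and 3. The level was highest in female 2, the shallowest plate, where 1 well held 10 of the 53 Rprm counts of its members. The part of depth in this level was not tested. On the other side of the Tac1 limit, 26 of the 87 wells with both genes held exactly 1 Tac1 count and 9 held 2, while the median was 5 and the highest 125. On the limit of detected genes, the lowest members had 726 and 765 genes, and the highest well left out had 483.

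The label of neurons held in the members. All 107 had counts of Stmn2 and Uchl1, genes of the neuronal cytoskeleton and of protein turnover, and 105 had the neuronal tubulin gene Tubb3. Each member had at least 2 and at the median 8 of 12 pan-neuronal markers, and 0 of the 107 were non-neuronal by the marker rule. Of 12 astrocyte markers, 9 had a count in members, and Aldh1l1, Fgfr3 and Gja1 were at 0. They summed to 14.2 to 70.2 CPM over the 6 mice, at a median of 42.9 CPM. The median was 50.3 CPM in wells without Rprm, 59.0 in wells with neither gene and 47.3 in wells with both. Of 10 microglial markers, 9 were at 0 in members, and of 10 oligodendrocyte-lineage markers 7 were, among them Mog, Olig1, Olig2 and Sox10. Wells with both genes had 8 and 4 of these at 0, and the more numerous wells without Rprm 7 and 1.

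A glutamatergic gene was in most members, and so was at least 1 VMH marker, as in the other wells. Slc17a6, the vesicular glutamate transporter gene, had a count in 85 of 107 (79.4%; exact binomial 95% interval 70.5 to 86.6%). At least 1 of 7 VMH markers (Nr5a1, Fezf1, Nkx2-1, Adcyap1, Bdnf, Nptx2, Sox14) was in 87 members (81.3%) and at least 3 were in 45 (42.1%). In wells without Rprm, wells with neither gene and wells with both, at least 1 was in 79.2%, 72.2% and 96.6%. At least 3 were in 38.1%, 28.7% and 71.3% of these groups, and Slc17a6 was in 74.7%, 69.1% and 81.6%, not matched for depth. Among single markers, Bdnf, a neurotrophin gene, was in 51 members, Adcyap1, which codes for the peptide PACAP, in 43, the zinc finger factor gene Fezf1 in 37, and Nr5a1, the lineage gene itself, in 28. The dynorphin precursor gene Pdyn was in 51. A gene of GABA synthesis or transport (Gad1, Gad2 or Slc32a1) was in 24 members (22.4%), and 16 of these also had Slc17a6. Such a gene was in 14.6% of wells without Rprm, 19.1% of wells with neither gene and 8.05% of wells with both.

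**Figure D2:**
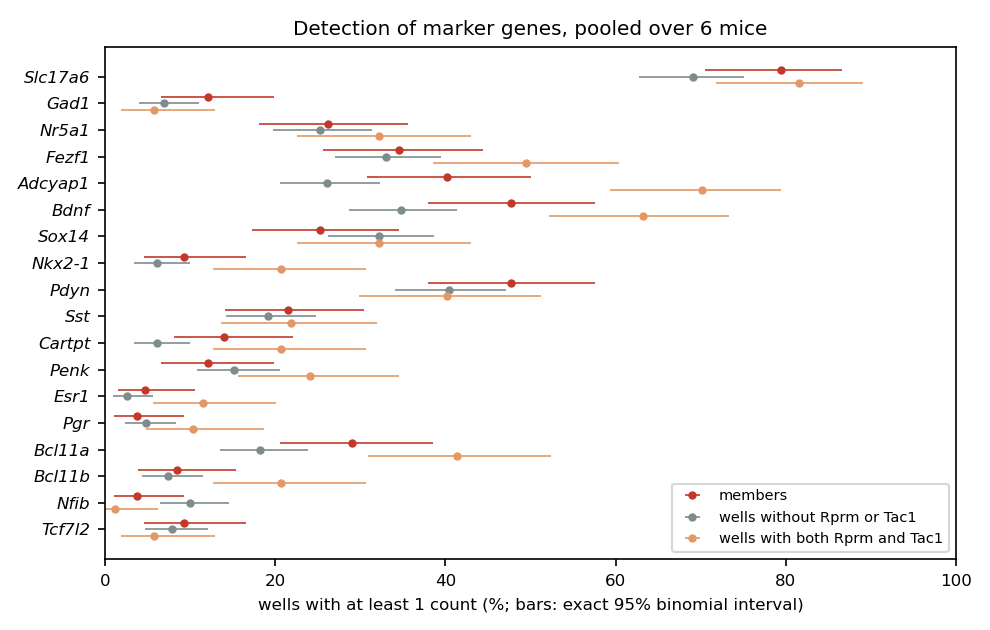
Percent of wells with at least 1 count (horizontal axis) of 18 genes in members, wells with neither gene and wells with both, pooled over 6 mice and not matched for depth. Bars are exact 95% binomial intervals. Slc17a6 is in 79.4% of members, and Adcyap1 is in 40.2% of members, 26.1% of wells with neither gene and 70.1% of wells with both.

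Nuclear receptor genes bear on the series' title. Esr1, the estrogen receptor alpha gene, had 6 counts in 5 of 107 members (4.67%, 1.53 to 10.6%), and it was listed at 0 in the members of female 1 and male 2. Wells without Rprm had it in 2.98% and wells with both Rprm and Tac1 in 11.5%, at higher depth. Of the 10 wells with Esr1 among those with both genes, 8 were in female 3 and 2 in female 2, and without female 3 the share was 2 of 67 wells (2.99%). Pgr, the progesterone receptor gene, had 6 counts in 4 members, in female 3, male 1 and male 3. Neither gene had enough counts in members for a test against other wells.

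A small number of members held very high counts of a single peptide gene. Somatostatin (Sst) had 1090 counts in 23 members, and 8 wells with at least 20 counts held 96.5% of them. These 8 wells were 3, 1 and 2 in females 1, 2 and 3 and 2 in male 1, with 26 to 405 Sst counts each and 1 to 5 Rprm counts. Gad1 or Gad2 was in 6 of the 8, Slc17a6 in 3, Cartpt in 5, Nr5a1 in 1 and Fezf1 in 0. Pomc, the proopiomelanocortin gene of arcuate neurons, had 639 counts, and 5 wells with 65 to 207 counts held 99.1% of them. Of these 5 wells, 2 were in female 3, 2 in male 2 and 1 in male 3. All 5 had Isl1 and 4 had Tbx3, both factors of arcuate Pomc neurons, and neither Nr5a1 nor Fezf1 had a count in any of them. Such wells were also found outside the members. Of the 336 wells without Rprm, 16 were Sst-rich (4.76%, beside 7.48% of members) and 11 Pomc-rich (3.27%, beside 4.67%), and of the 87 wells with both genes 3 and 1 were. The limit of 20 counts was chosen after the values were seen.

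The other 94 members were mostly cells with Slc17a6 (78 of them, 83.0%) and at least 1 VMH marker (81). At least 3 VMH markers were in 44 of the 94 and in 1 of the 13 wells rich in Sst or Pomc. A GABA gene was in 15 of the 94 and 9 of the 13. Npy, the other main arcuate peptide gene, had 3 counts in all members and 195 in wells without Rprm, where 3 wells held 172 of them. These shares describe wells sorted by 1 gene's count and carry no test.

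Few genes were called between members and the wells without Rprm of their own plates. Of 3276 genes tested, Cox6a2 was lower and none was higher at an adjusted p under 0.05 (edgeR quasi-likelihood on summed counts, mouse as a block), or 0.0305% of the genes. Without adjustment, 146 genes (4.46%) had a p under 0.05, and DESeq2 called 0 genes, with 75 under that p. The median log2 fold change over all genes was -0.00136.

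Cox6a2 codes for the muscle-type form of a subunit of cytochrome c oxidase, the last complex of the respiratory chain (chr7:128205435-128206387, minus strand). In members it stood at 14.0, 61.6 and 64.1 CPM in females 1, 2 and 3 and at 12.1, 74.9 and 61.4 CPM in males 1, 2 and 3. In wells without Rprm it stood at 149, 180 and 122 CPM (females) and 112, 103 and 145 CPM (males). The lowest of these lay above the highest of the members, so the groups did not overlap. Wells with both Rprm and Tac1 were also low, at 36.0 ± 37.2 CPM (SD, n = 6) beside 48.0 ± 27.5 in members, and had Cox6a2 in 16.1% of wells beside 15.0%. It had too few counts to be tested between these groups. The log2 fold change was -1.46 (SE 0.276; edgeR adjusted p = 0.0265, lower in 6 of 6 mice), on 33 counts in 16 members and 250 counts in 91 other wells. With each well thinned to 1500 counts, Cox6a2 was in 4.80% ± 6.53 of members and 12.7% ± 5.24 of wells without Rprm (SD, n = 6 mice), against 15.8% and 27.3% unthinned, and members were lower in 5 of 6 mice.

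The Cox6a2 call was not stable over settings. Leaving out 1 mouse at a time kept the log2 fold change between -1.71 and -1.20, but the call was lost without female 1, female 2, male 1 or male 3 (edgeR adjusted p up to 0.172). Over 16 other settings, its adjusted p ran from 9.21e-06 to 0.9997 and was under 0.05 in 8, and DESeq2 gave 0.799. Without the well richest in Cox6a2 in each mouse and group, the log2 fold change was -2.22 (edgeR adjusted p = 0.00437).

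The next 4 genes by p did not pass the threshold. Each lay the same way in 6 of 6 mice, which picking by p with mouse as a block favours. The share of all tested genes that did so is not given. Serpine2, which codes for an inhibitor of serine proteases, was at 124 ± 25.01 CPM in members and 227 ± 77.4 in wells without Rprm (SD, n = 6; log2 fold change -0.83, SE 0.174, edgeR adjusted p = 0.0596). Wfs1, which codes for the endoplasmic reticulum protein wolframin, was at 65.1 ± 50.8 against 141 ± 68.0 CPM (-1.01, SE 0.235, edgeR adjusted p = 0.124), with 0 counts in the members of female 2. Chn1, a gene for a Rac GTPase-activating protein, was at 251 ± 104 against 374 ± 99.9 CPM (-0.57, SE 0.138, edgeR adjusted p = 0.150). Ap1s2, a gene for a small subunit of a clathrin adaptor, was the one with higher values, at 296 ± 180 against 161 ± 71.6 CPM (0.80, SE 0.177, edgeR adjusted p = 0.0855).

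**Figure D3:**
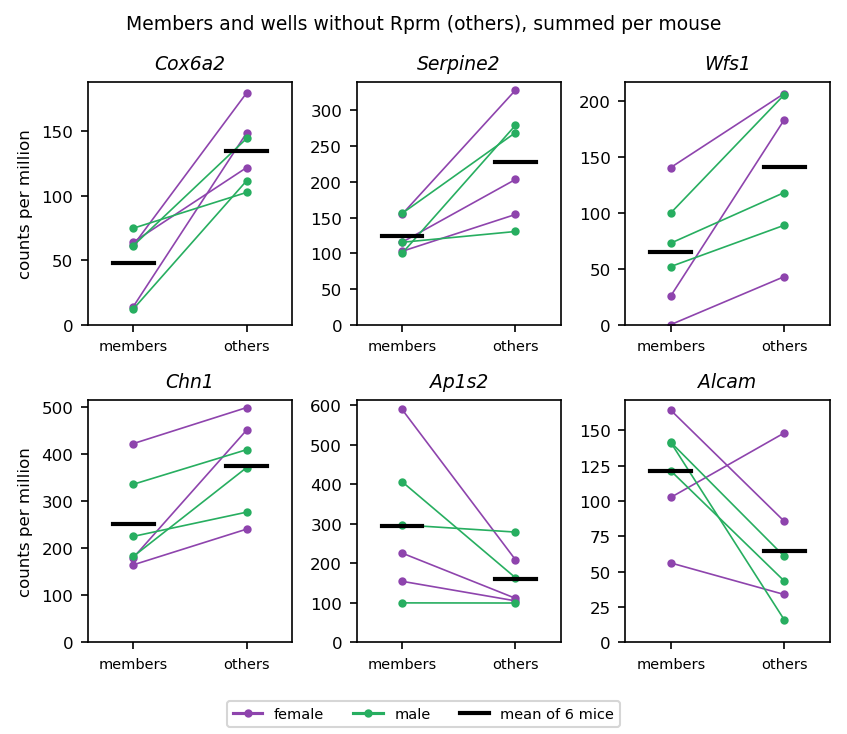
Counts-per-million values (vertical axes) of 6 genes summed over members and over wells without Rprm of the same mouse, joined by lines. Black bars are means of 6 mice. Cox6a2 is lower in members of each mouse, at a mean of 48.0 against 135 CPM. Alcam is also drawn against wells without Rprm, at a mean of 121 against 64.7 CPM.

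Leaving out the wells with at least 20 counts of Sst or Pomc from every group, a setting added after the data were seen, gave 6 genes out of 3163. Cox6a2 (-1.66), Wfs1 (-1.32) and Chn1 (-0.69) were lower in members by edgeR. Syp, the synaptophysin gene (0.82), Pcdh7, a protocadherin gene (1.14), and Ap1s2 (0.76) were higher. Their edgeR adjusted p-values ran from 6.26e-04 for Cox6a2 to 0.0460 for Ap1s2.

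No marker of the nucleus passed a test between members and wells without Rprm. Of 18 genes described throughout (identity, peptide and receptor genes), 10 had enough counts and 0 of the 10 passed. Nr5a1 was at 76.1 ± 35.4 CPM in members and 87.0 ± 40.6 in the other wells, Fezf1 at 141 ± 88.3 and 159 ± 43.3, and Slc17a6 at 493 ± 146 and 478 ± 179 (SD, n = 6; edgeR adjusted p = 0.99987 each). Of the VMH identity list of 18 genes, 8 were tested, 0 passed, and the median log2 fold change was -0.09, beside -0.00136 over all genes. No gene of the 27 lists passed.

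Genes of Reprimo's own pathway did not pass either. Of 20 genes of the p53 pathway, 16 had a count in members, and 3 were tested against wells without Rprm. None of the 3 passed, with log2 fold changes of -0.09 to -0.00409 and a median of -0.08. Bax, a gene of programmed cell death, was at -0.08 (SE 0.195, edgeR adjusted p = 0.99987). Of 21 cell cycle genes, 3 were tested and none passed (median -0.03). Of the 21, 15 had a count in members and 6 were at 0 (Cdc25c, Cdk1, Cdk2, Cdk6, Mki67 and Top2a), and wells with neither gene also had 15 with a count and 6 at 0. The receptors and relatives of Tac1 (Tacr1, Tacr2, Tacr3, Tac2, Tac4) summed to 9.44 to 49.9 CPM, with Tac4 and Tacr2 at 0, and had too few counts to test.

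Against the 230 wells that lacked both genes, the same single gene was called. Of 2903 genes tested, Cox6a2 was lower (0.0344%) and none was higher, with 133 genes at an unadjusted p under 0.05. Its log2 fold change was -1.59 (SE 0.308, edgeR adjusted p = 0.0458, 6 of 6 mice), from 142 ± 40.4 CPM in wells with neither gene to 48.0 ± 27.5 in members. This call too was lost without female 1, female 2, male 1 or male 3. The comparison shares the members with the one before, and its wells are part of that comparison's wells.

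Genes of the cell surface and the synapse came next here, without passing, and picking by p again favours agreement between mice. Alcam, a cell adhesion gene, was at 56.2, 164 and 103 CPM in the members of females 1, 2 and 3 and at 121, 141 and 142 CPM in those of males 1, 2 and 3. In wells with neither gene it was at 31.6, 78.9 and 84.6 CPM in the females and at 55.5, 15.6 and 54.9 CPM in the males. Members were higher in 6 of 6 mice, and the ranges overlapped through female 1 (log2 fold change 1.24, SE 0.273, edgeR adjusted p = 0.123). Wells with both Rprm and Tac1 also had it, in 43.7% of wells beside 42.1% of members, at 92.7 ± 53.4 CPM beside 121 ± 38.1 (SD, n = 6), and higher than members in females 1 and 3. Between members and wells with both, the log2 fold change of Alcam was 0.53 (SE 0.278, edgeR adjusted p = 0.785). Pcdh7 was also higher in 6 of 6 mice (0.97, adjusted p = 0.301), Syp in 5 (0.78, adjusted p = 0.199) and Arhgap36 in 5 (1.27, adjusted p = 0.301; all by edgeR). In Arhgap36, 1 well of male 1 held 95.7% of the counts of that mouse's members.

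Without the Sst- and Pomc-rich wells, 8 of 2688 genes were called in this comparison by edgeR. Alcam (1.33), Pcdh7 (1.37), Syp (0.91), Tmeff2 (0.95) and Nnat (0.33) were higher in members. Cox6a2 (-1.81) and Pcp4 (-0.49) were lower. Sst was lower too (-1.52), but its own counts chose the wells left out, so this call is no test of Sst. With all wells, Sst was at 0.87 (SE 0.796, edgeR adjusted p = 0.971). The DESeq2 fit on all wells called 1 gene, Apoe (adjusted p = 0.0466), an apolipoprotein gene of glia. Apoe had 13 counts in 8 members, against 588 in 39 wells with neither gene, which include the 12 non-neuronal wells.

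Members and wells with both Rprm and Tac1 share the first gene of the rule and differ in the second, and here more genes were called. Of 2056 genes tested, 2 were higher in members (0.0973%) and 6 lower (0.292%), together 0.389%, and 137 had an unadjusted p under 0.05. The lower genes were Nrgn, Penk, Adcyap1, Calb2, A2ml1 and Cbln1, and the higher ones Sst and Ap1s2. DESeq2 called 0 genes, with 71 at an unadjusted p under 0.05. With robust shrinkage of the spread, the smallest edgeR adjusted p over all genes was 0.00777. Members had fewer counts per well than these wells, at medians of 5840 and 7320.

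Nrgn, the gene of the calmodulin-binding protein neurogranin, was lower in members than in wells with both. It kept its call with any 1 mouse left out. Members held 1896, 185 and 462 CPM in females 1, 2 and 3 and 941, 466 and 802 CPM in males 1, 2 and 3. Wells with both genes held 1471, 590 and 1728 CPM (females) and 1261, 1408 and 1885 CPM (males). Members were lower in 5 of 6 mice, female 1 being the exception. The log2 fold change was -0.92 (SE 0.125, edgeR adjusted p = 4.76e-08), and from -1.21 to -0.76 with a mouse left out. The fit shrinks each gene's spread towards that of all genes. This SE and p therefore do not measure the spread of Nrgn between mice, and the same holds for the other genes of this comparison. DESeq2 gave Nrgn an unadjusted p of 0.00332 and an adjusted p of 0.9998. With wells thinned to 1500 counts, Nrgn was in 55.5% ± 19.1 of members and 76.8% ± 14.4 of wells with both (SD, n = 6; 75.6% and 89.5% unthinned), and lower in members of 6 of 6 mice. The thinned share was 51.7% ± 22.2 in wells without Rprm and 44.8% ± 18.5 in wells with neither gene, so low Nrgn was not particular to members.

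Adcyap1 (chr17:93199017-93206537, plus strand) was lower in members of 6 of 6 mice. Its levels in members were 225, 226 and 103 CPM in females 1, 2 and 3 and 121, 108 and 56.6 CPM in males 1, 2 and 3. In wells with both genes they were 321, 295 and 124 CPM (females) and 251, 125 and 243 CPM (males). The ranges of the groups overlapped (log2 fold change -0.91, SE 0.224, edgeR adjusted p = 0.0322). The call was lost without male 1 or male 3, with an edgeR adjusted p of up to 0.696. Thinned wells with Adcyap1 were 17.1% ± 8.78 of members and 29.4% ± 12.8 of wells with both (SD, n = 6; 41.1% and 70.3% unthinned). Wells without Rprm had Adcyap1 at 127 ± 17.7 CPM and wells with neither gene at 101 ± 21.9. Members had it at 140 ± 69.7 CPM and wells with both at 226 ± 84.0.

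Cbln1, whose product cerebellin organises synapses, was at 203 ± 51.7 CPM in members and 326 ± 77.4 in wells with both (SD, n = 6), lower in 5 of 6 mice. Its log2 fold change was -0.67 (SE 0.174, edgeR adjusted p = 0.0474), and it kept an adjusted p under 0.05 in 1 of the 6 fits that left a mouse out. Thinned wells with Cbln1 were 19.6% ± 7.53 of members and 33.0% ± 10.05 of wells with both, and members were lower in 5 of 6 mice. Summed levels of Cbln1 were 211 ± 42.1 CPM in wells without Rprm and 180 ± 33.9 in wells with neither gene. Calb2, the calretinin gene, was at 773 ± 442 against 1089 ± 691 CPM (-0.46, SE 0.114, edgeR adjusted p = 0.0322), with 0 counts in the wells with both genes of female 2 and lower members in 5 of 6 mice. Its call was lost without female 1, female 3 or male 1. Thinned wells with Calb2 went the other way, at 61.8% ± 29.9 of members and 57.6% ± 29.9 of wells with both (SD, n = 6). Members were higher by this share in 4 of 6 mice. Summed levels of Calb2 were 933 ± 424 CPM in wells without Rprm and 893 ± 401 in wells with neither gene.

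Penk, the enkephalin precursor gene, was at 72.6 ± 99.4 CPM in members and 118 ± 71.0 in wells with both (SD, n = 6; log2 fold change -1.32, SE 0.309, edgeR adjusted p = 0.0219). Female 2 was the exception among the 6 mice, at 267 CPM in members, and 92.3% of those counts were in 1 well. A2ml1, a gene of the alpha-macroglobulin family of protease inhibitors, was at 85.7 ± 70.5 against 142 ± 38.2 CPM (-1.15, SE 0.296, edgeR adjusted p = 0.0474) and lower in 5 of 6 mice. Its call was lost without female 3 or any of the 3 males, and that of Penk without female 3 or male 2. Thinned wells with A2ml1 were 13.1% ± 7.52 of members and 12.4% ± 7.61 of wells with both (SD, n = 6). Members were lower by this share in 4 of 6 mice. For Penk the thinned shares were 2.88% ± 5.08 and 12.6% ± 9.30, lower in members of 5 of 6 mice. In wells without Rprm and wells with neither gene, A2ml1 was at 55.0 ± 15.8 and 48.5 ± 26.1 CPM. Penk was in 6.17% and 6.53% of these wells when thinned.

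Ap1s2 was higher in members in 4 of 6 mice, at 296 ± 180 against 141 ± 76.5 CPM (SD, n = 6; log2 fold change 1.00, SE 0.206, edgeR adjusted p = 0.00296). The difference was widest in female 3, at 590 against 100.3 CPM, and the call was lost without that mouse (edgeR adjusted p = 0.512). Without the richest well of each mouse and group, Nrgn (-1.004), Adcyap1 (-1.07), Cbln1 (-0.84) and Ap1s2 (1.20) kept an edgeR adjusted p under 0.05, and Calb2 did not (-0.45, adjusted p = 0.161). Sst, Penk and A2ml1 then had too few counts to be tested.

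**Figure D4:**
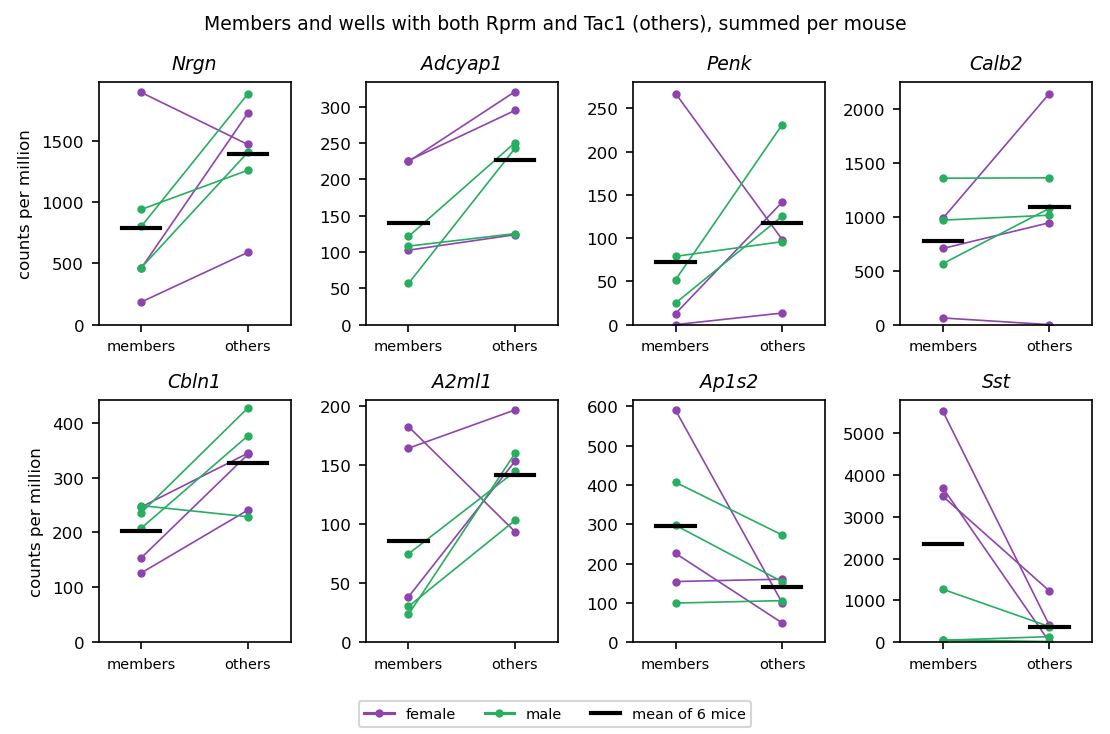
Counts-per-million values (vertical axes) of the 8 called genes, summed over members and over wells with both Rprm and Tac1 of the same mouse and joined by lines. Black bars are means of 6 mice. Adcyap1 is lower in members of each mouse, and Sst is high in members of the 3 females and male 1.

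Sst was at 3694, 3492 and 5526 CPM in the members of females 1, 2 and 3 and at 1269, 58.2 and 47.2 CPM in those of males 1, 2 and 3. In wells with both genes it was at 13.4, 1229 and 407 CPM (females) and 376, 19.3 and 136 CPM (males). Members were higher in 5 of 6 mice (log2 fold change 2.78, SE 0.212, edgeR adjusted p = 1.71e-20). The fit shrinks the spread of each gene towards that of all genes. Its SE and p therefore do not measure the spread of Sst between mice. DESeq2 gave Sst an unadjusted p of 0.0155 and an adjusted p of 0.9998. The 1 richest well held 54.0%, 98.8% and 94.0% of the member counts of females 1, 2 and 3, so the level rests on a few cells. Without the wells rich in Sst or Pomc, 2 of 1824 genes were called, Nrgn (-0.91) and Ap1s2 (0.90), and Adcyap1 was at -0.78 (edgeR adjusted p = 0.187).

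Of 18 VMH identity genes, 5 were tested against wells with both genes, 2 passed as lower in members (Adcyap1 and Cbln1), 4 were negative, and the median log2 fold change was -0.34, beside 0.00409 over all genes. Neither Adcyap1 nor Cbln1 was called without the Sst- and Pomc-rich wells. Of 12 cerebellin and neurexin genes, 7 were tested, 7 were negative and 1 passed (Cbln1; median -0.26). Of 26 neuropeptide and granin genes, 13 were tested, 1 passed as higher (Sst) and 2 as lower (Penk and Adcyap1; median -0.05). Bcl11a, a zinc finger factor gene, was at 63.9 ± 33.6 against 130 ± 73.9 CPM (-0.99, SE 0.309, edgeR adjusted p = 0.196).

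Summed levels of the 7 VMH markers did not pass a test between members and other wells. The sum was 913, 698 and 526 CPM in the members of females 1, 2 and 3 and 504, 507 and 878 CPM in those of the males. Its mean was 671 ± 189 CPM (SD, n = 6) in members, 673 ± 172 in wells with neither gene and 904 ± 188 in wells with both. The difference from wells with both was -233 CPM, with members lower in 5 of 6 mice (two-sided exact permutation p = 0.0625, adjusted 0.188 over 4 tests), and it ran from -280 to -199 CPM with any 1 mouse left out. From wells with neither gene it was -1.89 CPM, with members lower in 4 of 6 mice (exact p = 0.969). Male 3 went the other way, at 878 against 524 CPM, and male 1 was the lowest against its own wells, at 504 against 798 CPM. Without male 3 the difference was -73.1 CPM (exact p = 0.375) and without male 1 it was 56.6 CPM (exact p = 0.688), so its sign rests on single mice. The smallest p these tests can give is 0.0312, or 0.0625 with a mouse left out.

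GABA genes (Gad1, Gad2 and Slc32a1) summed to 104 ± 82.8 CPM in members, 78.4 ± 18.8 in wells with neither gene and 29.7 ± 41.6 in wells with both (SD, n = 6). Members were higher than wells with both in 5 of 6 mice (two-sided exact permutation p = 0.0938, adjusted 0.188). Against wells with neither gene they were higher in 3 of 6 (exact p = 0.5). Female 2 and male 3 had the lowest member sums, at 20.5 and 28.3 CPM, and male 1 the highest, at 219 CPM. These 4 tests on summed markers were added after the data were seen.

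The share of kept wells that were members did not differ between the sexes beyond the spread of the mice. It was 14.8%, 24.1% and 14.0% in females 1, 2 and 3 and 22.6%, 19.05% and 26.1% in males 1, 2 and 3. The means were 17.6% ± 5.66 and 22.6% ± 3.52 (SD, n = 3 each), and the male minus female difference was 4.95 percentage points (two-sided exact permutation p = 0.3; the smallest possible with 3 against 3 is 0.1). After each well was thinned to 1500 counts, the shares were 12.2% ± 7.30 and 10.9% ± 1.13 and the difference was -1.21 points (exact p = 0.8). Female 2, the shallowest plate, had the highest thinned share, at 19.7%.

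Within members, no gene passed a test between males and females. Of 1918 genes, 0 (0%) were called by edgeR and 49 had an unadjusted p under 0.05; DESeq2 also called 0, with 69 under that p. The 5 smallest p-values belonged to Eif4a2, Sst, Cartpt, Eif4g2 and Ndn, each at an edgeR adjusted p of 0.997. Eif4a2, an RNA helicase gene of translation initiation, was at 632, 493 and 179.5 CPM in the members of the females and at 42.5, 41.6 and 156 CPM in those of the males, without overlap (log2 fold change -2.34, SE 0.569). In wells without Rprm it was at 460 ± 176 CPM in females and 73.0 ± 44.5 in males (SD, n = 3 each). A lack of overlap between the sexes is a description here and below. The share of the 1918 genes that show it is not given, so it adds no support to a gene.

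Eif4g2, another gene of translation initiation, was at 46.9 ± 23.2 CPM in members of females and 165 ± 47.3 CPM in those of males (SD, n = 3 each; log2 fold change 1.66, SE 0.511). Sst averaged 4237 ± 1121 CPM in members of females and 458 ± 702 CPM in those of males, without overlap (-3.21, SE 0.927). For Cartpt, the gene of the peptide CART, these levels were 257 ± 204 and 44.2 ± 51.7 CPM (-2.42, SE 0.743), and they overlapped. None of the 18 genes described throughout passed, and 7 had enough counts to be tested. Adcyap1 was at 184 ± 70.9 in female and 95.4 ± 34.2 CPM in male members (-0.96, SE 0.461, edgeR adjusted p = 0.997).

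The difference between members and wells without Rprm depended on sex for 3 of 4121 genes (0.0728%), Sst, Cartpt and Ndn. In each the fitted member effect was lower in males, 189 genes had an unadjusted p under 0.05, and DESeq2 called 0 (63 under that p). For Sst, the log2 ratio of members to wells without Rprm (10 CPM added to each) was 5.45, 1.10 and 6.02 in females 1, 2 and 3 and 2.35, -5.25 and -4.21 in males 1, 2 and 3. The interaction was -5.44 (SE 0.780, edgeR adjusted p = 1.04e-05), and DESeq2 gave Sst an adjusted p of 0.837. As in the test against wells with both genes, this SE and p do not measure the spread of Sst between mice. The call was lost without male 2 (edgeR adjusted p = 0.0626). The interaction stood at -3.57 without the richest well of each mouse and group (edgeR adjusted p = 0.00257).

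Single wells show which cells carried the Sst counts. Of the 9 wells with at least 20 Sst counts in females, 8 held Rprm (88.9%; exact binomial 95% interval 51.8 to 99.7%), namely 3 of 3, 2 of 3 and 3 of 3 in females 1, 2 and 3. Of the 18 in males, 3 held Rprm (16.7%, 3.58 to 41.4%), namely 3 of 5, 0 of 8 and 0 of 5 in males 1, 2 and 3. Rprm was in 33.7% of all kept wells in females and 39.4% in males. Median counts of the Sst-rich wells were 5353 in females and 5678.5 in males. Without the wells rich in Sst or Pomc, the Sst interaction stood at 2.06 (edgeR adjusted p = 0.997). These wells were left out by their own Sst counts, so this value cannot test the interaction.

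**Figure D5:**
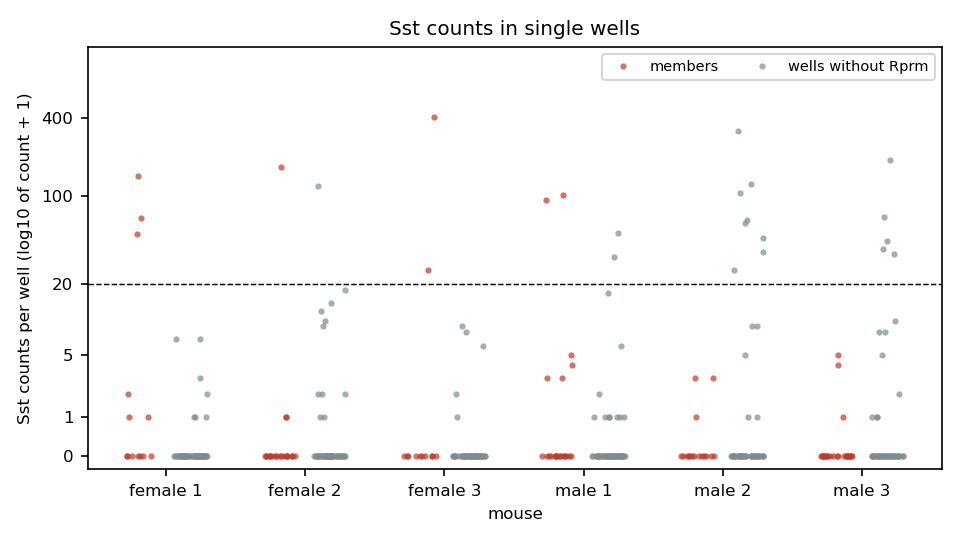
Sst counts per well (vertical axis, log10 of count plus 1) by mouse, for members (red) and wells without Rprm (grey), with horizontal jitter. The dashed line marks 20 counts. In females 1 and 3 the wells above it in these 2 groups are members, and in males 2 and 3 they are wells without Rprm.

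Cartpt followed in part. Its members were at 98.3, 185 and 487 CPM in females 1, 2 and 3 and at 12.1, 16.6 and 104 CPM in males 1, 2 and 3. In wells without Rprm it was at 27.1, 51.4 and 14.5 CPM (females) and 10.4, 160 and 58.4 CPM (males). The log2 ratio of members to these wells (10 CPM added to each) was 1.55, 1.67 and 4.34 in females 1, 2 and 3 and 0.12, -2.68 and 0.74 in the corresponding males. Members were higher in 3 of 3 females and 2 of 3 males, and male 2 was the exception. In male 2, 1 well without Rprm held 28 of the 50 counts of that group. The interaction was -3.73 (SE 0.642, edgeR adjusted p = 4.94e-04), and here too the SE and p do not measure the spread between mice. A single well held 52.6% of the member counts of female 3 and 86.4% of those of male 3, both Pomc-rich wells. The call was lost without female 3 or male 2, and without the richest well of each mouse and group (-4.13, edgeR adjusted p = 0.314). It remained without the wells rich in Sst or Pomc (-5.22, adjusted p = 0.0355).

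Ndn, the imprinted necdin gene, was at 1152, 1910 and 2321 CPM in the members of females 1, 2 and 3 and at 3527, 2845 and 3446 CPM in those of males 1, 2 and 3. In wells without Rprm it was at 748, 1389 and 1258 CPM in the females and at 3651, 3069 and 3773 CPM in the males. Members were higher in 3 of 3 females and lower in 3 of 3 males, with an interaction of -0.77 (SE 0.140, edgeR adjusted p = 0.00106). A single well held 52.4% of the member counts of female 1. Without the richest well of each mouse and group, the interaction was -0.56 (edgeR adjusted p = 0.141), and the call was lost without female 3, male 2 or male 3.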

How the data were processed

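Single-cell RNA was counted in 6 mice, 1 plate of 96 wells each. The authors deposited raw counts, whole numbers for 21926 genes in every well. Per the submitters' processing notes, HTSeq and the mm10 build were used. The aligner, the strand setting and the counting of molecules or of reads were not given in the sources used here.

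For each mouse and group, well counts were added up so that mice were the replicates, and the sums went into edgeR 4.0.16 in R 4.3.3 (quasi-likelihood, TMM, filterByExpr, Benjamini-Hochberg threshold 0.05). Mouse was a block except for sex. Rprm and Tac1 chose the wells and were left out of tests and library sizes. Fold changes are log2, members over other wells or male over female. CPM divide a count by the total of its sum. DESeq2 1.42.0, exact permutation tests over mice (scipy 1.17.1) and thinning to 1500 counts per well were also used, and a limit of 3 counts was set beside counts of 0. No doublet caller was run. Positions are from GENCODE vM21.

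The members and the 27 gene lists were chosen with earlier results of these data known. Named genes were up to 10 a direction that passed 0.05, reached 20 CPM in 1 group and went the same direction in every mouse (for sex, no overlap), or else the 5 with the smallest p. To these were added called members of lists, and 18 genes given always. A2ml1, Pomc, Npy, Apoe, Bax, Tmeff2, Nnat and Pcp4 were named after their values were seen. Of 367 listed genes, 4 were not in the tables used. Other tools, scalings, filters, well limits and subsets of mice made 53 alternatives, and 17 more were added after the data were seen. The fits were tested on simulated counts. The labels do not say whether replicate numbers pair females with males, and they were not treated as pairs. Correlations were -0.065, -0.0988 and 0.139 between same-numbered mice and -0.150 to 0.159 between the others. Such values cannot show whether mice were paired.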

Additional observations from a re-analysis of the deposited data

Results flagged for a closer look

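Within groups of 6 mice, 1 value each stood far from the rest in 3 of 36 groups of levels examined, and chance gives about 1 in 20. Syp in wells without Rprm or Tac1 was at 439.6 CPM in female 2. In wells with both Rprm and Tac1, Sst was at 1229 CPM in female 2. In members, Penk was at 267 CPM in female 2. All 3 come from female 2, the shallowest plate.

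For 3 genes the effect of being a member differed between the sexes by the interaction test of edgeR, and DESeq2 called 0. The log2 difference of the member effect, male minus female, was -5.44 for Sst, -3.73 for Cartpt and -0.77 for Ndn. For Sst and Cartpt single wells held up to 98.8% and 100% of a mouse's member counts (for Cartpt, 2 counts in male 2).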

How the results depend on the processing

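Counts of called genes were small and moved with the setting. Against wells without Rprm (1 gene), the count was 20 with no filter on low counts, 0 by DESeq2, 2 with robust shrinkage of the spread, 0 with at least 2 Rprm counts in members, 6 without Sst- or Pomc-rich wells and 0 in wells at or above their plate's median depth. Against wells with neither gene (1), it was 20, 1, 1, 0, 8 and 0 under the same settings. Against wells with both genes (8), it was 19 with no filter, 0 by DESeq2, 11 with robust shrinkage, 1 with at least 2 Rprm counts and 2 without the rich wells. The sex comparison (0) gave 11 with no filter. The interaction (3) gave 5 with no filter, 0 by DESeq2 and 1 each with robust shrinkage, without rich wells and in deep wells. Sst stood at 2.06 without the rich wells, but its own counts chose those wells, so that value is no check of it. Without the replicate block of mouse, the 3 comparisons of wells gave 0 calls each, and the interaction 0. Leaving out 1 mouse gave 0 to 4, 0 to 3, 4 to 11, 0 to 1 and 2 to 6 calls in the 5 comparisons, in the order above. The difference in member share between the sexes reversed to -1.21 points after thinning and ran from 3.12 to 8.21 with a mouse left out. The summed VMH markers of members minus those of wells with neither gene (-1.89 CPM) ran from -73.1 to 56.6 CPM with a mouse left out. RLE scaling, at least 1000 genes per well and leaving out non-neuronal wells kept the counts within 1.5 times of those reported. The cause of each change was not tested.

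Replicate numbers were not taken to pair the sexes. With the replicate block, the sex comparison called 0 genes and the share differed by 4.95 points. Summed member counts of 48687 to 211844 per mouse left 1918 to 4121 genes testable, and genes below that depth could not be compared.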
